A study of Mus musculus with 7 samples.

Results

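RNA polymerase II (RNAP2) is mostly found over genes, yet part of its signal lies in the long stretches of sequence between them. The regions described here are the RNAP2 regions of mouse skeletal muscle that lie far from any protein-coding gene. Overlapping peaks of the 2 RNAP2 replicates were merged, and a region was kept when both replicates had a peak in it, which gave 10752 regions. A region was called intergenic when its midpoint lay more than 10000 bp from every protein-coding transcription start site (TSS), outside every protein-coding gene body and not within 5000 bp past a protein-coding 3′ end. This held for 2112 regions, or 19.6% of all, beside 6100 regions within 1000 bp of a TSS (promoter regions), 1337 between 1000 and 10000 bp from one, 1123 in gene bodies over 10000 bp from a TSS and 80 past 3′ ends. Just inside the distance limit, the region nearest to *Cabp1* (10013 bp) had a −log10 p of 2.50 (replicate 1) and 1.45 (replicate 2), and just outside it the region nearest to *Vgll3* (9938 bp) had 3.21 and 3.26.

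The samples were gastrocnemius muscles of wild-type male C57BL/6J mice, 5 months of age, on a light-dark cycle and standard chow. Chromatin was immunoprecipitated and the attached DNA sequenced (ChIP-seq) for RNAP2 and BMAL1 at zeitgeber time (ZT) 4, counted in hours from lights on, and for REV-ERBα at ZT 8, with 2 biological replicates each and 1 input sample. No group carried a deletion or a treatment. RNAP2 was recovered with an antibody whose clone is spelled 8WG1 in the sample descriptions and 8WG16 in the series description, and REV-ERBα with a mixture of 2 antibodies. The input sample described here was of ZT 4. RNAP2 and REV-ERBα were thus sampled at different times, and an overlap between them is not one of the same hour. All 8 skeletal muscle marker genes tested, among them *Acta1*, *Ckm* and *Myh4*, had RNAP2 in both replicates, while 0 of 4 liver, 0 of 3 immune and 0 of 2 heart marker genes did, and of 3 neuronal markers *Syt1* did.

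As background, RNAP2 transcribes not only protein-coding genes but also long noncoding RNAs (lncRNAs), most primary microRNAs and most spliceosomal small nuclear RNAs (snRNAs), whereas U6 snRNA, tRNAs and Y RNAs are made by RNA polymerase III. It is also found at active enhancers, where short transcripts are made. BMAL1 is an activator of the circadian clock that binds the E-box CACGTG, and REV-ERBα is a repressor that binds the half-site AGGTCA.

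U2 snRNA genes, which have an octamer, ATGCAAAT, in their upstream promoter element, held some of the strongest intergenic regions. The 260 bases that end at base 20 of the gene are shown for each, from GRCm38.p6, because the 3 U2 copies with an intergenic region all had the octamer, as did copies without one. Capitals mark the octamer and the first bases of the gene.
Gm24497, chr1:72243973-72244232, plus strand: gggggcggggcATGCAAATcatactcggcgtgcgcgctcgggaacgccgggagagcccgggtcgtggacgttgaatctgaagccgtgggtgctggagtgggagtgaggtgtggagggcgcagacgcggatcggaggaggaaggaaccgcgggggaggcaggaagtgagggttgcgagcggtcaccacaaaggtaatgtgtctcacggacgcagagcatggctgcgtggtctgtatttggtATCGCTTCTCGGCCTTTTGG
Gm25360, chr1:72226000-72226259, plus strand: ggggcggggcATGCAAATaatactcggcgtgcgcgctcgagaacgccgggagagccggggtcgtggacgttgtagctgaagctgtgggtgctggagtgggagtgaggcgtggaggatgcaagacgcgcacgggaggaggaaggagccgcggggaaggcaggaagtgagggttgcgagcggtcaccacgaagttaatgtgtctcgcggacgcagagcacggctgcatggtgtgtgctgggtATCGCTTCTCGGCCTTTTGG
Gm23971, chr11:101645911-101646170, minus strand: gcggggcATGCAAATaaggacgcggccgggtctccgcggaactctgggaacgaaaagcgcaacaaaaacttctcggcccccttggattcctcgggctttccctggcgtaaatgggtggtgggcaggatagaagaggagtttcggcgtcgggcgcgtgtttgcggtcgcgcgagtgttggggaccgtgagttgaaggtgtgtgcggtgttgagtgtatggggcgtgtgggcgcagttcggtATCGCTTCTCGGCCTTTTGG
Counted from the gene's start, the octamer began at position -229 at *Gm24497*, -230 at *Gm25360* and -233 at *Gm23971*. Compared base by base without gaps, the gene of *Gm25360* was 97.9% identical to *Gm24497* and that of *Gm23971* 98.95%. The 100 bases upstream were 89% and 33% identical.

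The promoters of *Mir1a-1hg*, *Malat1*, *Lncpint* and *Snhg5* are shown because RNAP2 reached its summit at them. They run from 250 bases before to 50 after the start and come from RefSeq on GRCm38.p6. Capitals mark the letters TATAAA of the TATA box, the E-box CACGTG of clock factors and the further E-box form CAGCTG, searched on both strands, and the 3 motifs cannot overlap one another. Among 32851 RefSeq promoters of the same length, TATAAA was found in 13.6%, CACGTG in 7.15% and CAGCTG in 16.3%. Counted from these RefSeq starts, the RNAP2 summit lay 94 bp downstream at *Mir1a-1hg*, 22 bp at *Malat1*, and 30 bp at both *Lncpint* and *Snhg5*.
Mir1a-1hg, chr2:180385354-180385653, plus strand: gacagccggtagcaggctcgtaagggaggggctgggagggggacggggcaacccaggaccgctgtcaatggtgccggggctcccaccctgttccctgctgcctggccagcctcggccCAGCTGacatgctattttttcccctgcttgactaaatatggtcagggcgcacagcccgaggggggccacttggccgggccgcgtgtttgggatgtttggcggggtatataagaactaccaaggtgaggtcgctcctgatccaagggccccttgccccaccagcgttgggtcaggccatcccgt
Malat1, chr19:5802623-5802922, minus strand: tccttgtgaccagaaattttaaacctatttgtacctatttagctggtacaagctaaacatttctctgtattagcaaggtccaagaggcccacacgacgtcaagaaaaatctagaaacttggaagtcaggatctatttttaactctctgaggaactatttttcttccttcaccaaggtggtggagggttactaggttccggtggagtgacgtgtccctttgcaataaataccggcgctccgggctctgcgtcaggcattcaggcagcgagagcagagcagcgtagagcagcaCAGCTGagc
Lncpint, chr6:31218425-31218724, minus strand: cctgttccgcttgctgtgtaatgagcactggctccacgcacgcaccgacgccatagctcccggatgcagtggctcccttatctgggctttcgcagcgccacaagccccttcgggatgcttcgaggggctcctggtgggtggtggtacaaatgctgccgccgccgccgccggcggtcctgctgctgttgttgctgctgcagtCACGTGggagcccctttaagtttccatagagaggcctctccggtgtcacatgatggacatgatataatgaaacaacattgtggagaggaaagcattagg
Snhg5, chr9:88522848-88523147, minus strand: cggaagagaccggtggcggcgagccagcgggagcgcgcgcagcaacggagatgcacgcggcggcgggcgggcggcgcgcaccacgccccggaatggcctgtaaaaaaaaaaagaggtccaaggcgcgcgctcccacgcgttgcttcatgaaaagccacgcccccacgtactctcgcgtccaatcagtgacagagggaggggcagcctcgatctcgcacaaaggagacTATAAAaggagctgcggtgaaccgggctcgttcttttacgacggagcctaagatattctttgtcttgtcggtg
The E-box letters CACGTG stood in the *Lncpint* promoter, TATAAA in that of *Snhg5*, and CAGCTG, a form bound by myogenic factors, in those of *Mir1a-1hg* and *Malat1*. Only these exact letters were searched, so other forms, such as the letters tatataag in the *Mir1a-1hg* promoter, are not marked.

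Most intergenic regions were weak. The strength of a region was taken as the lower of the −log10 p values of its strongest peak in each replicate, and the lowest value over the intergenic regions was 1.31. The median strength was 1.99 for the 2112 intergenic regions, with quartiles at 1.98 and 2.60, against 3.07 for all RNAP2 regions and 4.69 for promoter regions. Their median fold enrichment over input was 2.92 in replicate 1 and 2.15 in replicate 2, and their median width was 504 bp. A q-value of 0.05 or less in both replicates was reached by 85 intergenic regions (4.02%), where 29.3% of all RNAP2 regions and 47.5% of promoter regions reached it. These 85 regions are called the strong intergenic regions here. Another 209 had p of 0.001 or less in both replicates, and the other 1818 did not. The plot of both replicates shows how the classes part.

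**Figure D1:**
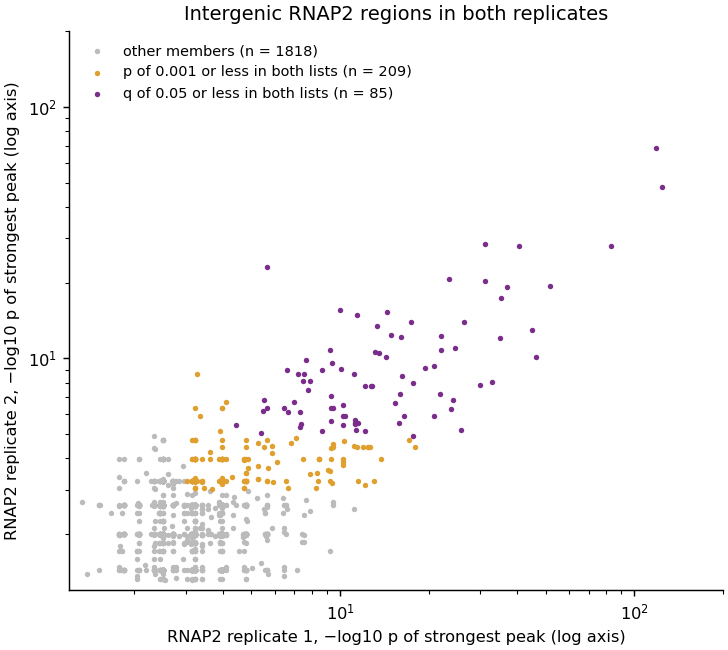
Each point is one of the 2112 intergenic RNAP2 regions, placed by the −log10 p of its strongest peak in replicate 1 (x axis) and replicate 2 (y axis), both on log axes. The 85 regions with q of 0.05 or less in both lists lie toward the upper right, up to 124 in replicate 1 and 68.9 in replicate 2, while the grey points pile up on few repeated values near the weakest peaks of the lists.

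The 2 replicates shared few of their intergenic peaks. Of the 36624 intergenic peaks of replicate 1, 5.94% overlapped a replicate 2 peak, and of the 81938 of replicate 2, 2.59% overlapped a replicate 1 peak. At promoters these shares were 51.9% and 51.5%. Replicate 2 peaks covered 2.41% of all intergenic bases, and 4.03% of the intergenic peak summits of replicate 1 lay in one. Among peaks with q of 0.05 or less, 303 of 1845 intergenic peaks of replicate 1 (16.4%) and 96 of 200 of replicate 2 overlapped the other list, and at promoters 76.1% and 98.6% did. Over the 2112 regions the −log10 p values in replicate 1 and in replicate 2 were correlated with a Spearman's rho of 0.181, and over the 85 strong ones 0.490, as a description of regions that share their libraries. Replicate 1 had the higher −log10 p at 1673 of the 2112 regions and at 67 of the 85. In 695 regions p was above 0.001 in both replicates. Reads per peak were not part of the lists, so no counting interval is given.

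The strong regions crowded toward genes although the 10000 bp around every TSS had been left out. Intergenic sequence made up 1399 Mb, or 52.8% of the known bases. Between 10 and 20 kb from the nearest protein-coding TSS, 26 of 216 intergenic regions were strong, which is 0.218 per Mb. From 20 to 50 kb the density of strong regions was 0.143 per Mb, from 50 to 100 kb it was 0.0646 and from 100 to 200 kb 0.0402. Beyond 200 kb there were 2 strong regions in 468 up to 500 kb, and 0 in 312 further out. The density of all intergenic regions was much flatter, with 1.81 per Mb at 10 to 20 kb and 1.26 per Mb beyond 500 kb. The median distance to a TSS was 119430 bp for all 2112 regions and 31858 bp for the strong ones.

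**Figure D2:**
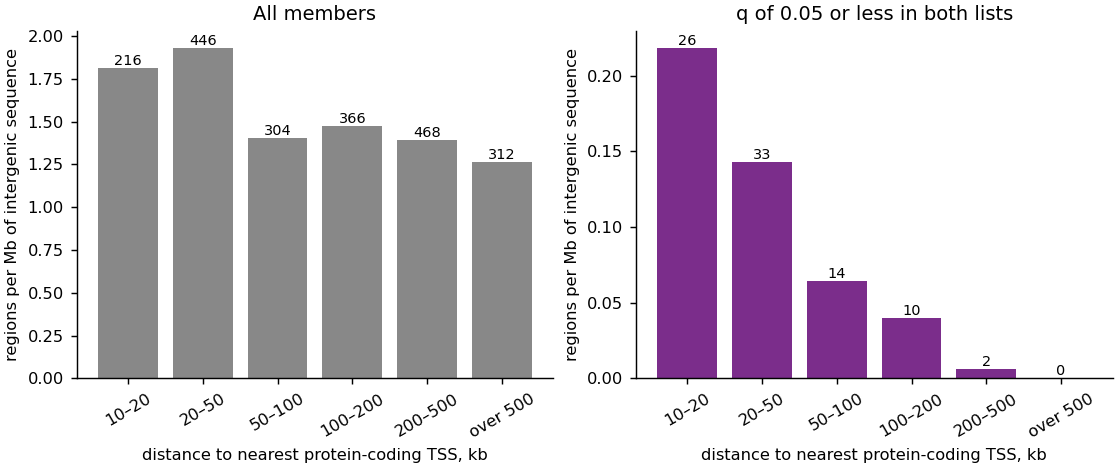
Bars give intergenic RNAP2 regions per Mb of intergenic sequence (y axes) by distance to the nearest protein-coding TSS in kb (x axes), for all 2112 regions on the left and the 85 strong ones on the right, with the number of regions above each bar. The left bars lie between 1.26 and 1.93 per Mb, and the right bars go from 0.218 per Mb at 10 to 20 kb to 0 beyond 500 kb.

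The 5 regions farthest from any coding gene were all weak. The farthest, on chromosome 8 at chr8:51318249-51318803, lay 2193201 bp from *Aga* and had a −log10 p of 3.21 (replicate 1) and 1.99 (replicate 2). The other four, nearest to *Cdh20*, *Pcdh20*, *Pcdh10* and *Flrt2*, lay 1757073 to 2140603 bp away with a strength of 1.99 to 2.59. Intergenic regions were found on every autosome, 60 to 165 on each, on chromosome X at 9 places and on Y at 0. The X chromosome was sparse in all 6 peak lists: replicate 1 of RNAP2 listed 2.20 peaks per Mb there and 36.5 per Mb on autosomes, and replicate 2 listed 3.83 and 70.2. The part of that difference in the count of X-linked intergenic regions was not tested.

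Strong intergenic regions lay at annotated noncoding genes more often than weak ones did. The midpoint lay in or within 1000 bp of a noncoding gene for 44 of the 85 strong regions (51.8%), for 28.2% of the regions with p of 0.001 or less and for 14.4% of the others. Over all 2112 regions it did for 365 (17.3%), while 15.1% of all RNAP2 regions and 10.6% of all intergenic bases lay that near a noncoding gene. A noncoding TSS was within 1000 bp of the midpoint for 36 strong regions (42.4%) and for 5.30% of all 2112, against 9.77% of all RNAP2 regions. The 365 regions touched 370 noncoding genes, mostly of the type lincRNA (272 regions) and processed transcript (53), with 30 regions at antisense genes, 10 at snRNAs, 6 at microRNAs and 6 at miscellaneous RNAs. Loci of the type TEC, which have transcript evidence but no experimental follow-up, and pseudogenes were counted apart, and 12 and 38 regions had only these.

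**Figure D3:**
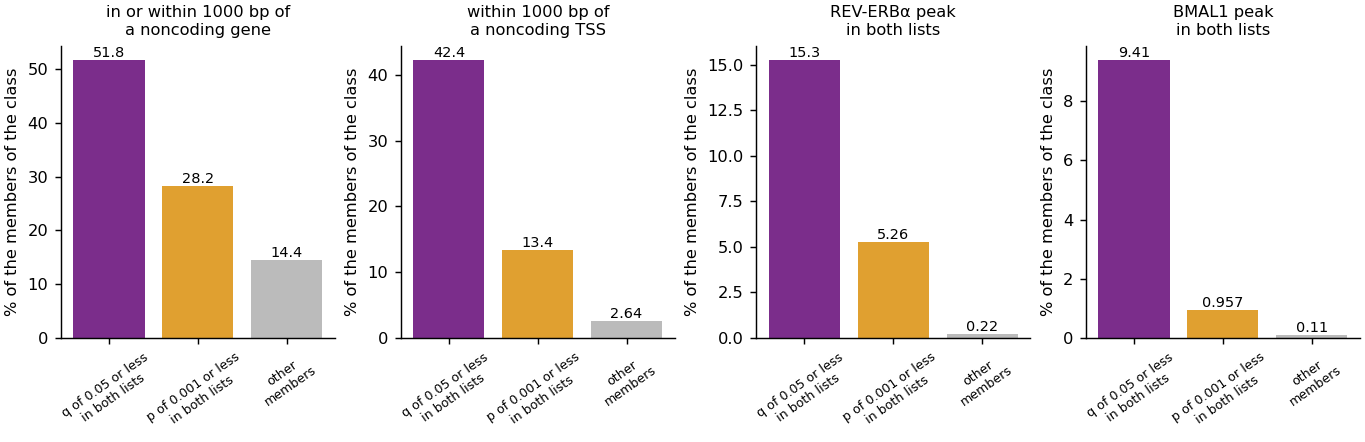
Bars give the percentage (y axes, from 0) of intergenic RNAP2 regions in 3 strength classes (85, 209 and 1818 regions) that lay in or near a noncoding gene, near a noncoding TSS, or that overlapped a REV-ERBα or a BMAL1 peak in both lists of that factor. Every share is highest in the strong class, from 51.8% near a noncoding gene to 9.41% with BMAL1.

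The RNAP2 summit of some strong regions sat on the start of a noncoding gene. In 35 of the 85 it lay within 1000 bp of a noncoding TSS, at a median position of -53 bp and a range of -798 to 945 bp, and in 19 of these within 150 bp. Over all 2112 regions it lay within 1000 bp in 114 and within 150 bp in 50. Among the closest, the summit was 8 bp downstream of the TSS at *1700012D14Rik*, 6 bp at *1810026B05Rik*, 23 bp at *1700020I14Rik* and 5 bp at *Snhg5*. These positions use GENCODE starts and can differ from those counted from RefSeq starts above. At the *Lncpint* region whose promoter is printed, the summit was at -11 bp by GENCODE.

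The strong regions were also nearer to promoters in base composition. In the 201 bp around the summit, the median GC content was 44.3% for all intergenic regions, 62.2% for the strong ones and 67.2% for promoter regions. The ratio of observed to expected CpG was 0.152, 0.731 and 0.875 in that order. The GC-box core GGGCGG, searched on both strands in the same window, was found at 37.6% of strong regions, 4.88% of all intergenic regions and 56.7% of promoter regions. CACGTG was found at 9.41%, 2.37% and 6.08%. The repeat-masked share of the window averaged 19.1% over the intergenic regions, while 42.9% of intergenic bases are masked. GC content moved with strength, and its part in the peak values was not tested.

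The strongest intergenic region of all was at *Neat1*, a nuclear lncRNA that builds paraspeckles (ENSMUSG00000092274). The region spanned chr19:5830533-5846488, 15956 bp, over most of the gene body and its start. Its −log10 p was 119 (replicate 1) and 68.9 (replicate 2), with a fold enrichment of 31.97 and 17.2. REV-ERBα peaks overlapped it with a −log10 p of 11.4 and 13.3, and BMAL1 peaks with 7.03 and 8.12, so that *Neat1* was covered in all 6 lists. The summit lay at position -89 from the nearest annotated start.

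*Malat1*, a nuclear-speckle lncRNA that lies beside *Neat1*, held 3 intergenic regions. The strongest, at chr19:5799703-5804064, had a −log10 p of 83.5 (replicate 1) and 27.9 (replicate 2). A region at the 3′ side, chr19:5794538-5795579, had 12.0 and 4.44 and overlapped REV-ERBα peaks of 4.54 and 3.79. The third had 5.65 and 2.60. BMAL1 was listed in replicate 1 alone at the strongest of the 3, with 5.38.

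Among the 16 abundant or imprinted nuclear lncRNAs tested, 6 held an intergenic region. Besides *Malat1* and *Neat1* these were *Lncpint*, a p53-induced lncRNA, with a strength of 9.28 and 8.68 at 2 regions, *Jpx* (3.97) and *Ftx* (2.60), which lie near *Xist* on the X chromosome, and the imprinted *Meg3* (2.26). Of the 18 annotated snoRNA host and short-lived lncRNAs (21 listed), *Snhg5* and *Dancr* held one. *Snhg5* had a −log10 p of 34.97 (replicate 1) and 12.1 (replicate 2), and *Dancr* 25.7 and 5.21. A further 11 of this list, such as *Gas5* and *Snhg1*, overlapped RNAP2 regions that were not intergenic by the rule. Of the 12 annotated muscle and mesenchymal lncRNAs (16 listed), *Carmn*, which is known from smooth muscle, held a region with 11.3 and 5.49. Of the 25 annotated structural small RNA genes (26 listed), *Rny1* held one with 10.3 and 5.91, its summit at position -336 from the start of the Y RNA. Of 10 muscle microRNA genes, *Mir1a-1* held the midpoint of a region within its 1000 bp flanks. In these other lists too, some genes overlapped RNAP2 regions without holding the midpoint of an intergenic one. Examples are *Kcnq1ot1*, *Tug1*, *Hoxaas3*, *Rn7sk* and *Rnu11*, and the microRNA genes *Mir1a-2*, *Mir133a-1*, *Mir133a-2* and *Mir486*.

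U2 snRNA genes gave 3 of the strong regions. U2 is a core RNA of the spliceosome, and its genes are transcribed by RNAP2. At *Gm24497*, where the lncRNA *D230017M19Rik* is also annotated, on chromosome 1, the −log10 p was 31.2 (replicate 1) and 28.6 (replicate 2). At *Gm25360*, in the same cluster near *Mreg*, it was 23.4 and 20.8. At *Gm23971* on chromosome 11 it was 5.65 and 23.1, so that of the 3 the replicates differed most there. The octamer stood upstream of all 3, as printed above.

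Of the 33 U2 copies in the RefSeq annotation, 11 had ATGCAAAT on either strand within 250 bases upstream. RNAP2 in both replicates lay within 1000 bp of 7 of these 11 and of 0 of the 22 without it. Not all of the 7 are intergenic: *LOC115487916* lies at a coding promoter and *Rnu2-10* within 10000 bp of a coding TSS. *Gm25939* and *Gm23444* lie past coding 3′ ends, and the part of these coding genes was not tested. Among the 16 intergenic copies, 3 of 4 with the octamer and 0 of 12 without it had an intergenic region. The octamer-bearing intergenic copy without one was *Gm23472*, which lies between *Gm25360* and *Gm24497* and is 99.5% identical to the latter. The octamer went together with high identity to *Gm24497*. All 11 copies with it were at least 94.8% identical, and 19 of the 22 without it were at most 64.7% identical. The other three, the intergenic *Gm25813* (97.9%), *Gm25202* (94.8%) and *Gm26108* (89.0%), had no region. Of these, *Gm25202* and *Gm26108* lie on chromosome X, where both RNAP2 lists were sparse. Also on X and without the octamer are *Gm24763*, *Gm26020* and *LOC115489265*, whereas all 11 copies with it lie on autosomes. Identity was compared without gaps, so an inserted or lost base lowers it, and a low value alone does not show a broken gene. The parts of the octamer and of the gene sequence cannot be told apart here. Reads from near-identical copies can be split or dropped by mapping, so the value at a single copy is uncertain.

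Other small RNA classes were rarely marked at intergenic places. Of 64 intergenic U1 copies, 45 of U7 and 4 each of U4 and U5, 0 had an intergenic region within 1000 bp. Of 356 intergenic U6 copies 3 did, with a −log10 p of at most 2.70 in either replicate, and these were among the 343 without the octamer, with 0 among the 13 that had it. Over all places, U1 copies had RNAP2 at 1 of 4 with the octamer and at 2 of 119 without, and U7 copies at 1 of 8 and 0 of 64. In the same order, U5 copies had it at 3 of 4 and 1 of 7, and U4 copies at 1 of 2 and 1 of 10. For U11 it was 1 of 1 and 0 of 4, for U12 1 of 1 and 0 of 3, and for U6 2 of 20 and 12 of 692. Of 225 intergenic tRNA genes 6 had an intergenic region within 1000 bp, of which 2 were strong, *n-TRccg1* with 46.5 and 10.1 and *n-TTcgt3* with 10.3 and 5.42. Of 7 intergenic 5S rRNA genes 0 did.

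The *Mir1a-1* locus held the second strongest region and the longest group of neighbours. *Mir1a-1* and *Mir133a-2* are made from one primary transcript and act in striated muscle. Of the mature strands of *Mir1a-1*, miR-1a-1-5p is shown, with the seed of this strand, bases 2 to 8, in capitals. The sequence of the other strand, miR-1a-3p, was not available, and the seed shown is not that of miR-1a-3p.
mmu-miR-1a-1-5p, chr2:180389057-180389079, plus strand: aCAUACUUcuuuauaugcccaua
The region at chr2:180385331-180391878 had a −log10 p of 124 (replicate 1) and 48.1 (replicate 2), and a fold enrichment of 36.8 and 16.3, the highest fold of any intergenic region in replicate 1. A second wide region of 13086 bp, chr2:180395566-180408651, which contains *Mir133a-2*, had 44.8 and 13.0. With these, 6 intergenic regions whose midpoints followed each other within 10000 bp lay over a span of 26417 bp, of which they covered 25076 bp, and 3 of them were strong. All 6 overlapped REV-ERBα in both lists, and 4 overlapped BMAL1 in both. A further strong region before them, at the lncRNA *B230312C02Rik* (chr2:180376396-180377202, 7.49 and 8.12), had its midpoint beyond that limit and had no REV-ERBα or BMAL1 peak in any list. A single wide REV-ERBα peak, with a −log10 p of 48.6 (replicate 1) and 45.9 (replicate 2), ran under 4 of the 6, so their REV-ERBα values are one observation.

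The only other group of at least 4 neighbours lay between *Myh3* and *Myh2* on chromosome 11, among the genes of the fast and developmental myosin heavy chains. It had 5 regions over 15089 bp, from chr11:67110896 to 67125984, around the lncRNA *2310065F04Rik*. Their strength ran from 3.97 to 4.73, and 0 were strong. Of the 5 regions, 2 overlapped REV-ERBα in both lists and 0 overlapped BMAL1 in both. The strongest, chr11:67112954-67117034, had a −log10 p of 17.2 (replicate 1) and 4.73 (replicate 2). Further on, toward *Myh2* and 29916 bp from its start, a strong region at chr11:67139503-67142718 had a −log10 p of 16.0 and 7.22 with REV-ERBα peaks of 4.15 and 4.99.

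**Figure D4:**
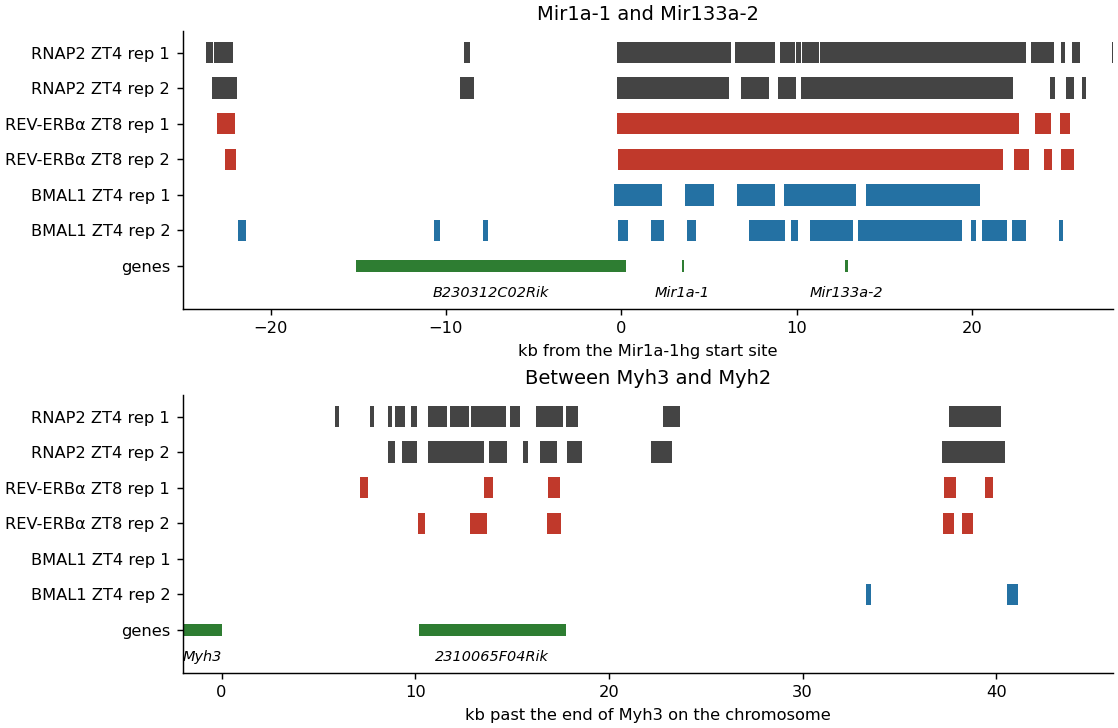
Peaks of the 6 lists (rows, bars from peak start to peak end) and annotated genes (green) at 2 loci, with distance in kb from the *Mir1a-1hg* start site above and from the end of *Myh3* below. At *Mir1a-1*, RNAP2 and REV-ERBα fill nearly the same stretch, the wide REV-ERBα peak of replicate 1 ending at 22.7 kb, whereas between *Myh3* and *Myh2* RNAP2 forms separate blocks and BMAL1 is listed in replicate 2 alone.

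*Nctc1*, a muscle noncoding transcript between *H19* and *Mrpl23*, lay in the widest intergenic region, chr7:142543073-142559508, of 16436 bp. Its −log10 p was 51.8 (replicate 1) and 19.4 (replicate 2). REV-ERBα peaks there had 24.7 and 37.2, and BMAL1 peaks 8.95 and 18.4. The RNAP2 summit lay 7488 bp downstream of the *Nctc1* start, within an annotated RefSeq skeletal muscle enhancer (chr7:142550891-142551376). Of 407 intergenic enhancers that RefSeq lists as functional elements, 8 overlapped an intergenic region, and 5 of them lay in 4 strong regions. A second enhancer at *Nctc1* is listed as active in somite, limb and heart among others. The others at strong regions were a limb and eye enhancer near *Nedd4*, with 32.8 and 8.04 and with REV-ERBα peaks of 4.88 and 6.59, one near *Bahcc1* (21.9 and 7.22) and an erythroid one near *Btg2* (5.39 and 5.07).

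By the midpoint, 12 of the 20 strongest intergenic regions lay in or within 1000 bp of a noncoding gene, 2 at a TEC locus alone and 6 at none of these. Those not yet named included *1700012D14Rik* (40.7 and 28.1), *1810026B05Rik*, which RefSeq calls *Chaserr*, upstream of *Chd2* (31.0 and 20.2), the TEC gene *Gm37352* (36.9 and 19.2), *0610043K17Rik* with *E130102H24Rik* (26.4 and 13.9), *Dleu2*, the host of miR-15a and miR-16-1 (13.3 and 13.4), *B230206L02Rik* (14.9 and 12.4) and the TEC gene *Gm30238* (16.1 and 12.2). Those with no GENCODE noncoding gene or TEC locus within 1000 bp of the midpoint were nearest to *Prrc2b* (35.2 and 17.3), *Ptma* (14.4 and 15.2), *Zfp239* (17.4 and 13.9), *Ccnl1* (22.1 and 12.3) and *Chd7* (11.4 and 14.8), besides the region over *Mir133a-2*. That microRNA gene lies inside its region but over 1000 bp from the midpoint. Replicate 1 had the higher value of the pair at 17 of the 20, and *Ptma*, *Dleu2* and *Chd7* were the exceptions.

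**Figure D5:**
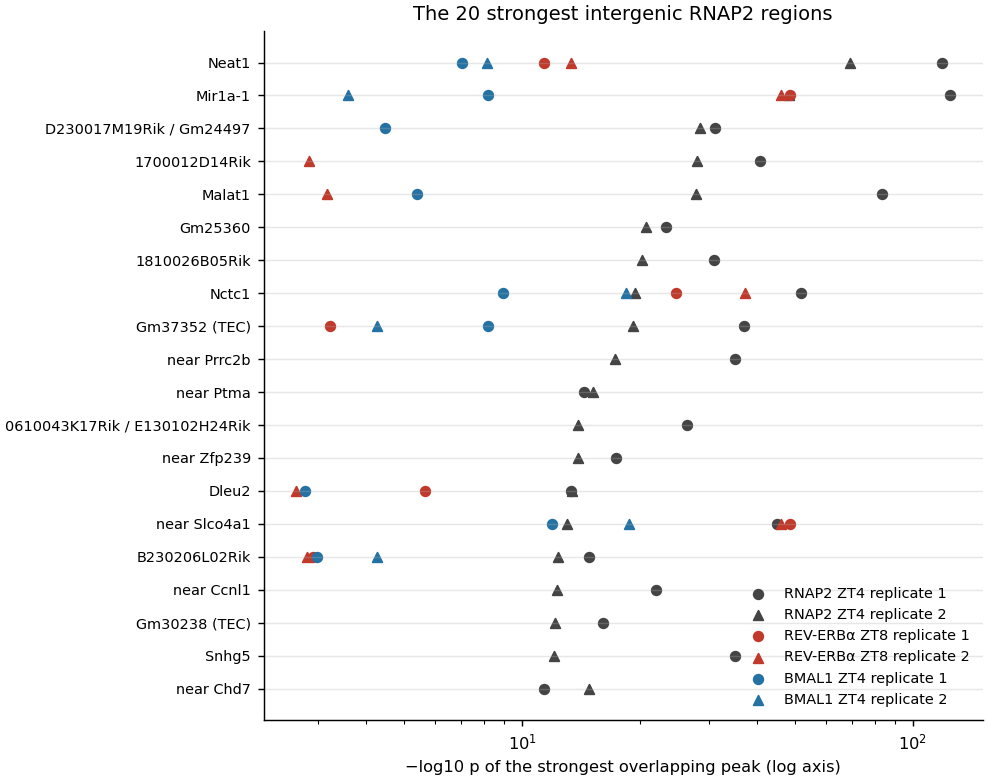
Each row is one of the 20 strongest intergenic RNAP2 regions, named by its noncoding gene or by the nearest coding gene, with the −log10 p of the strongest overlapping peak in each of the 6 lists on a log axis (circles replicate 1, triangles replicate 2). RNAP2 points run from 11.4 to 124, and REV-ERBα points exceed 10 at *Neat1*, *Mir1a-1*, *Nctc1* and the region over *Mir133a-2*.

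In RefSeq, 81 of the 85 strong regions were intergenic by the same rule, while 3 fell at a RefSeq coding promoter, those of *Tln2*, *Zswim6* and *Gm33989*, and 1 within 10000 bp of the start of *Dync1h1*. The regions at *Zswim6* and *Gm33989* are among the 44 counted above near a GENCODE noncoding gene. They are also among the 35 with a summit within 1000 bp of a noncoding TSS. At 36 strong regions no GENCODE noncoding gene, TEC locus or pseudogene lay within 1000 bp of the midpoint. The region that contains *Mir133a-2* is among them. By the midpoint, 11 of the 36 were near a RefSeq noncoding gene and 24 had no gene of either annotation, although neither annotation can be assumed complete. Among the 24, 5 are given here and were chosen after their values were seen. The one nearest to *Nr4a1*, an immediate early nuclear receptor gene, was 12230 bp from its start and had a −log10 p of 10.1 and 9.09, with REV-ERBα in replicate 2 alone (4.99). The one nearest to *Tef*, a PAR bZIP gene, had 12.2 and 5.16 and also REV-ERBα in replicate 2 alone (6.67), and in RefSeq its nearest coding start was that of *Tob2*, at 22025 bp. Those nearest to *Klf4* (9.34 and 7.07) and *Tbx3* (9.46 and 6.35) lay 118937 and 423777 bp from the start, the latter the farthest of the 85 strong regions from any protein-coding TSS. The strong region on the X chromosome, nearest to *Eif2s3x*, had 11.6 and 5.52.

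Further strong regions at noncoding genes, also chosen after their values were seen, included *Junos*, of the type antisense (9.43 and 9.58), *Lncppara* (15.9 and 5.51) and *Mirlet7i*, the gene of the let-7i microRNA (11.3 and 5.21). The *Junos* region lay 109031 bp from the nearest coding start, that of *Jun*, and the *Lncppara* region 63478 bp from that of *Ppara*. The mature let-7i-5p is given for the last, with its seed in capitals.
mmu-let-7i-5p, chr10:122985698-122985719, minus strand: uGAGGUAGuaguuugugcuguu
The RNAP2 summit lay at position -798 from the annotated *Mirlet7i* start. Strong regions on chromosome 17 at *Gm26917* and *AY036118*, the latter beside an annotated rRNA gene and both chosen after their values were seen, combined a high −log10 p with a low fold enrichment. *Gm26917* had a −log10 p of 12.7 and 7.73 at a fold of 1.92 and 1.46, and *AY036118* had 17.8 and 7.97 at 2.16 and 1.50.

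REV-ERBα and BMAL1 were uncommon at intergenic regions and were concentrated at the strong ones. REV-ERBα had a peak in both lists at 28 of the 2112 regions (1.33%), where 4.06% of all RNAP2 regions had one. In the single lists it was found at 3.27% in replicate 1 and 4.07% in replicate 2. Of the 85 strong regions 13 (15.3%) had REV-ERBα in both lists, against 6.98% of the 2896 equally strong promoter regions, 33.8% of 142 strong regions 1 to 10 kb from a TSS, 3 of 18 in gene bodies, 5 of 14 past 3′ ends and 8.59% of all 3155 strong RNAP2 regions. The 28 regions had 25 different strongest REV-ERBα peaks in replicate 1. The 13 include the 3 strong regions of the *Mir1a-1* group, which lie under one wide REV-ERBα peak. BMAL1 had a peak in both lists at 12 regions (0.568%), beside 0.995% of all RNAP2 regions. In the single lists it was found at 2.18% and 7.58%, the second list being the longer one. Of the strong regions 8 (9.41%) had BMAL1 in both lists, against 1.24% of strong promoter regions, 18.3% of strong regions 1 to 10 kb from a TSS, 1 of 18 in gene bodies, 2 of 14 past 3′ ends and 2.31% of all 3155 strong RNAP2 regions. These 8 again include the 3 strong regions of the *Mir1a-1* group. The classes of strong regions differed in median width, with 858 bp for intergenic and 768 bp for promoter regions. It was 1061.5 bp at 1 to 10 kb from a TSS, 824.5 bp in gene bodies and 1027 bp past 3′ ends. Any overlap was counted, and the part of width in these shares was not tested. No peak of either factor in any list lay at 1813 of the 2112 regions, and 8 had peaks in all 6 lists. Of the latter, 4 are neighbours in the *Mir1a-1* group that share the one wide REV-ERBα peak.

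Ranked by the lower of the 2 lists, the highest REV-ERBα value after the *Mir1a-1* and *Nctc1* loci was at chr4:133813127-133814697, nearest to *Rps6ka1*, with a −log10 p of 14.9 and 27.0 and RNAP2 of 7.06 and 4.80. It was followed by *Neat1*, *Lncpint* (5.41 and 6.34), *1700096K18Rik* (5.81 and 5.10) and the *Nedd4* region, which close the 10 highest. In 14 of the 28 regions the midpoint was near a noncoding gene. Around the summits of the 25 distinct strongest REV-ERBα peaks at intergenic regions, AGGTCA was found on either strand within 201 bp windows at 5 (20%), at 11.2% of the 393 at other RNAP2 regions, and at 13.1% of the 1263 regions that REV-ERBα has in both lists anywhere.

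By the lower of its 2 values, BMAL1 was highest at a region where neither REV-ERBα list had a peak. At chr11:90417990-90418453, nearest to *Hlf*, a gene of the PAR bZIP family of clock output factors, 27327 bp from its nearest start, BMAL1 had a −log10 p of 13.6 (replicate 1) and 12.5 (replicate 2). RNAP2 there had 3.97 and 6.35. The 81 bases around the BMAL1 summit are shown because they hold CACGTG and, as TGACCT on the other strand, AGGTCA, both in capitals. These 2 motifs can share the bases CA but did not here.
BMAL1 summit near Hlf, chr11:90418095-90418175, plus strand: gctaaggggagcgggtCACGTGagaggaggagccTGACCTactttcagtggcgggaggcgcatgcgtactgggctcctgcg
CACGTG lay in the 201 bp window of 3 of the 12 BMAL1 summits at intergenic regions, of 21.5% of the 93 at other RNAP2 regions and of 2.55% of the 2742 regions that BMAL1 has in both lists. The other regions with BMAL1 in both lists were the 4 at *Mir1a-1*, *Nctc1*, *Neat1*, *Gm37352* (8.19 and 4.25), *B230206L02Rik* (2.995 and 4.25), *Lncpint* (2.48 and 2.401), one near *Rps6ka1* (2.44 and 3.56) and one near *Amd2* (2.48 and 1.87). At *Lncpint*, the 81 bases around the BMAL1 summit (chr6:31216372-31216452) lay outside the promoter printed above and held no CACGTG.

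REV-ERBα had peaks in both lists at 3 intergenic regions between *Myh3* and *Myh2*. The 81 bases around the summit of one of them are shown because AGGTCA stands there on the minus strand, in capitals, while the same length around the other two, both in the group of 5, held none.
REV-ERBα summit near Myh2, chr11:67139678-67139758, plus strand: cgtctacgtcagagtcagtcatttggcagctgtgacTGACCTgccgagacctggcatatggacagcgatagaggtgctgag
It belongs to the strong region there, which is nearest to *Myh2*, the gene of myosin heavy chain IIa.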

How the data were processed

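Peaks of the 6 lists were those the authors deposited. Per the study's methods, reads were aligned to mm10 with BWA, duplicate and multi-mapping reads were removed, which can leave near-identical gene copies with few reads, replicates of a factor were down-sampled to equal depth, and peaks were called per replicate with MACS2 using input DNA at p of 0.05. The submitters' processing notes name BWA 7.12 and MACS2 2.1.1. For each peak the authors deposited a score, a fold enrichment over input (a ratio), a −log10 p and a −log10 q. Reads per peak are not in these lists, so depth behind a peak is unknown. The score was not analysed.

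Peaks were merged on an overlap of at least 1 bp, and each region took the strongest peak of each list. Genes were those of GENCODE release M21. The noncoding flank was 1000 bp. Python 3.11.15, numpy 2.4.6, scipy 1.17.1, pysam 0.24.0 and matplotlib 3.10.9 were used, and the scripts were tested on simulated intervals. With 2 lists per factor and no read counts, all comparisons are descriptions with no test. The regions and gene lists were chosen with earlier results of these data known. Named were the 20 strongest regions, the 10 with the highest REV-ERBα and the 10 with the highest BMAL1 values in both lists, the genes of the 5 fixed lists that held a region, the 5 farthest regions and every group of at least 4 regions within 10000 bp of each other. Other genes, among them *Amd2*, B230312C02Rik, the strong region near *Myh2*, 1700020I14Rik, the U2 copies without a region, the tRNA genes and the RefSeq enhancers and promoters, were chosen after their values were seen. Alternatives tried were stricter p and q limits, other overlaps and distances, lists of equal size, each replicate list alone and, added after seeing the data, RefSeq genes in place of GENCODE genes.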

Additional observations from a re-analysis of the deposited data

Results flagged for a closer look

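Replicate 1 of RNAP2 listed 9 peaks on unplaced scaffolds and replicate 2 listed 0. These peaks lie outside the assembled chromosomes and entered no comparison, since a region needed a peak in both lists.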

How the results depend on the processing

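All 4 shares moved with how strict the peaks had to be. The intergenic share of RNAP2 regions was 19.6% in the report. It was 5.36% with −log10 p of 3 or more, 2.69% with q of 0.05 or less, 16.0% with replicate peaks overlapping by 50% of the shorter one, 17.6% with a TSS distance of 20000 bp and 14.3% with RNAP2 lists of equal size. With 1 RNAP2 list left out it ran from 41.7% to 48.5%. In that order of p, q and equal list size, the share near a noncoding gene was 35.03%, 51.8% and 20.6%, the share with REV-ERBα was 5.44%, 15.3% and 2.17%, and the share with BMAL1 was 2.72%, 9.41% and 0.999%. RefSeq genes gave 20.6% near a noncoding gene. With 1 list left out, the share near a noncoding gene ran from 11.7% to 13.4%, that with REV-ERBα from 0.0940% (without RNAP2 replicate 1) to 4.07% (without REV-ERBα replicate 1) and that with BMAL1 from 0.0819% (without RNAP2 replicate 2) to 7.58% (without BMAL1 replicate 1). The settings differ in the peaks they keep, in the distance rule or in the annotation, and the causes of the moves were not tested. The other alternatives moved the 4 shares by less than their 95% binomial interval, which covers counting error only. No paired analysis was possible because no test gives these results. A peak list has no reads for absent peaks, so a region without a listed peak is not shown to lack the factor.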
